A study of Mus musculus with 12 samples.

Results

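The genes described here are 10 members of 3 growth factor systems of vascular smooth muscle: the platelet-derived growth factor (PDGF) ligands Pdgfa, Pdgfb, Pdgfc and Pdgfd with their receptors Pdgfra and Pdgfrb, the fibroblast growth factor Fgf2 with its receptor Fgfr1, and the insulin-like growth factor Igf1 with its receptor Igf1r. They were chosen by symbol, and all 10 were found among 22180 genes, each with 1 probe set. In the order just given their probe set numbers were 17454345, 17319380, 17398416, 17514460, 17438246, 17351027, 17397129, 17500108, 17236288 and 17479099. RNA was measured on microarrays in primary aortic smooth muscle cells of C57BL/6J mice, an inbred strain, at passage 3 to 4. The cells were grown in DMEM (a standard culture medium) and 10% fetal calf serum, with glucose at 0.3 g/l, which is 1.7 mM, in one group and at 4.5 g/l, which is 25 mM, in the other, with 6 arrays per group, numbered by replicate. The groups are also called low and high glucose. The question was how the glucose concentration alters gene expression in these cells. The series text gives 14 days of culture and the sample labels give 1 week. Nothing in the labels says whether the 6 arrays of a group came from separate animals or cultures, so p-values measure the spread between these arrays, which may be technical. Serum itself carries growth factors and was present in both groups, and an osmotic control was not analysed here.

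PDGFs are secreted dimers that bind receptor tyrosine kinases on mesenchymal cells. PDGF-A and PDGF-C signal mainly through the alpha receptor, PDGF-B through both receptors and PDGF-D mainly through the beta receptor. In the vessel wall, endothelial cells release PDGF-B, and smooth muscle cells and pericytes carry the beta receptor, through which they divide and migrate. FGF2 is held on heparan sulfate in the matrix and acts through FGF receptors, and IGF1 supports survival and growth of smooth muscle through the IGF1 receptor.

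In limma, a linear model fitted over all 22180 genes with Benjamini-Hochberg adjustment, 6 of the 10 genes passed an adjusted p of 0.05, against 15.5% of all genes. Fgf2, Igf1r, Igf1, Pdgfb and Pdgfc rose in 4.5 g/l (5 genes, where 7.01% of all genes rose), and Pdgfrb fell (1 gene, where 8.52% of all genes fell). Pdgfd, Pdgfra, Fgfr1 and Pdgfa did not pass. In a fit without the dimmest 25% of genes, 9 of the 10 genes and 23.8% of all genes passed. The median log2 difference (4.5 minus 0.3 g/l) of the 10 genes was 0.29, and that of all genes was -0.01. All values below are log2 RMA values (a background-corrected, normalized brightness per probe set), so a difference of 1 is a doubling, and levels are not compared between genes.

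For the genes that changed, the RefSeq sequence before the annotated start site is shown for Pdgfc and Igf1r, because theirs were the 2 windows of changed genes that lay wholly outside the annotated span of the gene. The RefSeq table held a start-site window for 7 of the 10 genes. Each window is the 250 bases before the start, 5′ to 3′ on the gene's strand, in build GRCm38.p6. The capitals mark matches on either strand to 4 patterns that were searched: GGGCGG (the GC box), CACGTG (an E-box), TGANTCA (the AP-1 site) and the CArG box, which serum response factor binds.
Pdgfc, chr3:81036166-81036415, plus strand: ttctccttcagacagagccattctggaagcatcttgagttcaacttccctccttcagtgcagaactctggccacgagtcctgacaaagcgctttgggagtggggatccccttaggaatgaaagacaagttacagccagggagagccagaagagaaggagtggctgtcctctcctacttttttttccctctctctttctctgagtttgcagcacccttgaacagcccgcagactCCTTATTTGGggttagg
Igf1r, chr7:67952007-67952256, plus strand: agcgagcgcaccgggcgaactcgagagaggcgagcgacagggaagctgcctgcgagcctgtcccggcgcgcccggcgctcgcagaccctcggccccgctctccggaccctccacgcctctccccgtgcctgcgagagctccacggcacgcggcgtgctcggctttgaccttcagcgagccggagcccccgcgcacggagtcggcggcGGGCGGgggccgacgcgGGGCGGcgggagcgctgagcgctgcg
The Pdgfc window held 1 CArG box, whose first base lay at -17 from the start, and none of the other 3 patterns. Of 32851 windows of the same length in RefSeq, 1.47% held a CArG box. The Igf1r window held GGGCGG at -43 and at -26, a pattern present in 32.7% of all windows. CACGTG, in 6.02% of all windows, and TGANTCA, in 6.75%, were absent from both. A match is a description of the letters, and binding was not measured.

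Across all genes, the array of replicate 4 in the 0.3 g/l group stood apart. It lay at 17.2 on the first principal component (46.2% of the variance), among the 4.5 g/l arrays at 12.5 to 26.2, whereas the other 0.3 g/l arrays lay at -30.2 to -24.4. On the second component (10.9%) the 4.5 g/l arrays of replicates 1 to 3 lay at -17.9 to -12.0 and those of replicates 4 to 6 at 12.6 to 16.1. The 0.3 g/l arrays did not divide by number there, at -9.0 to 5.4 in replicates 1 to 3 and -5.4 to 9.0 in replicates 4 to 6. The labels do not name these number ranges as batches. Median values of the arrays ran from 4.92 to 5.05. All 8 smooth muscle markers were measured and 6 rose in 4.5 g/l, with Myh11, the smooth muscle myosin heavy chain, 9.07-fold higher. Without low-glucose array 4, 5295 genes (23.9%) passed instead of 3444, and 9 of the 10 growth factor genes passed, Pdgfa being the exception. In 9 of the 10 genes, replicate 4 differed from the mean of the other 0.3 g/l arrays in the direction of the 4.5 g/l group. Pdgfb was the exception. The share of all genes that did so was not computed. Since this array lay among the 4.5 g/l arrays across all genes, the count is not read as a trait of the 10 genes.

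**Figure D1:**
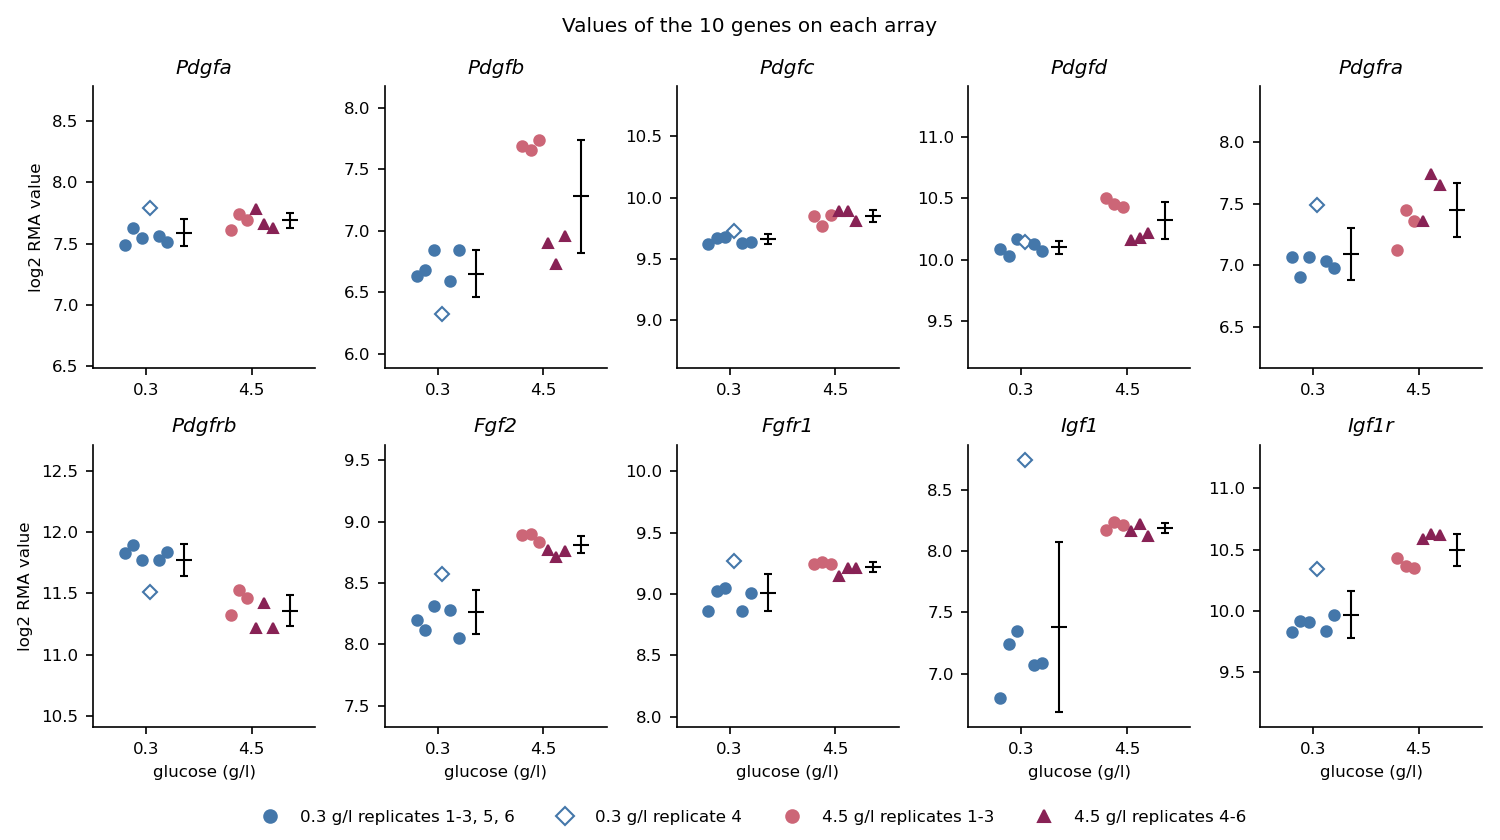
Log2 RMA value (vertical axis, spanning the same number of units in every panel) of each gene on the 12 arrays, by glucose concentration, with the mean and SD of 6 arrays beside each group. The open diamond is low-glucose array 4, which lies at 8.74 for Igf1 where the rest of its group lies at 6.80 to 7.35, and Pdgfb separates high-glucose arrays 1 to 3 (circles) from replicates 4 to 6 (triangles).

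Among the PDGF ligands, Pdgfb, which encodes the B chain, had the largest difference. It ran from 6.32 through a median of 6.66 to 6.84 at 0.3 g/l and from 6.73 through 7.31 to 7.74 at 4.5 g/l. Of the 4.5 g/l arrays, 5 of 6 lay above the highest 0.3 g/l array. Pdgfb rose by 0.63 ± 0.18 (log2 difference ± SE, n = 6 per group), or 1.54-fold (limma adjusted p = 0.0296). The rise was uneven within 4.5 g/l, with 7.66 to 7.74 in arrays 1 to 3 against 6.73 to 6.96 in arrays 4 to 6. Within replicates 1 to 3 of both groups, where 13.1% of all genes passed, the log2 difference of Pdgfb was 0.98 ± 0.08 (SE, limma adjusted p = 0.000521). Within replicates 4 to 6 it was 0.28 ± 0.15 (limma adjusted p = 0.398), and without low-glucose array 4 there it was 0.14 ± 0.12 (limma adjusted p = 0.473). Whether the difference itself varied between these sets of arrays was not tested. With all but 1 array, Pdgfb did not pass without low-glucose array 1, 2 or 5 or without high-glucose array 1, 2 or 3, with log2 differences of 0.54 to 0.63 and limma adjusted p between 0.0520 and 0.0655. Pdgfb also missed the threshold in the exact rank-sum test (adjusted p = 0.0724).

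Endothelial cells are a known source of PDGF-B, and the mean of 10 markers of that cell type separated the same arrays within 4.5 g/l. Taken singly, 27.8% of all genes separated them, which is an unlike measure from a mean of 10 genes. How many of the markers did so singly was not counted. The mean log2 value of 10 endothelial markers was 7.62 to 7.76 in high-glucose arrays 1 to 3 and 6.95 to 7.01 in replicates 4 to 6. It was 7.17 in low-glucose array 4 and 7.68 to 7.73 in the other 0.3 g/l arrays. Those other arrays had marker values like those of high-glucose arrays 1 to 3, but Pdgfb of only 6.59 to 6.84 and Pdgfd of 10.03 to 10.17. The log2 value of the summed markers was 12.38 to 12.89 at 0.3 g/l and 11.98 to 12.73 at 4.5 g/l. Of the 10 markers, 1 fell between the groups (Emcn, a log2 difference of -0.43, limma adjusted p = 0.0236, and up to 0.0562 with 1 array left out), none rose and 9 did not pass. The count that fell was 0 to 3 with 1 array left out, 3 being that without low-glucose array 4 and 0 that without low-glucose array 1, 3 or 5 or high-glucose array 4, 5 or 6. Within replicates 4 to 6 without low-glucose array 4, a set chosen after seeing the data, 8 of the 10 fell, against 8.94% of all genes. The median log2 difference of the 10 markers there was -0.80. Cdh5, the adhesion molecule of endothelial junctions, named after its values were seen, had mean log2 values of 11.10 at 0.3 g/l and 10.51 at 4.5 g/l (limma adjusted p = 0.101). RMA values have no zero, and none of the 10 markers had a mean under 4.20, the bound of the dimmest 25% of genes. In these bulk samples, fewer cells of a type and less RNA per cell cannot be told apart, and the part of endothelial RNA in the Pdgfb values was not tested.

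**Figure D2:**
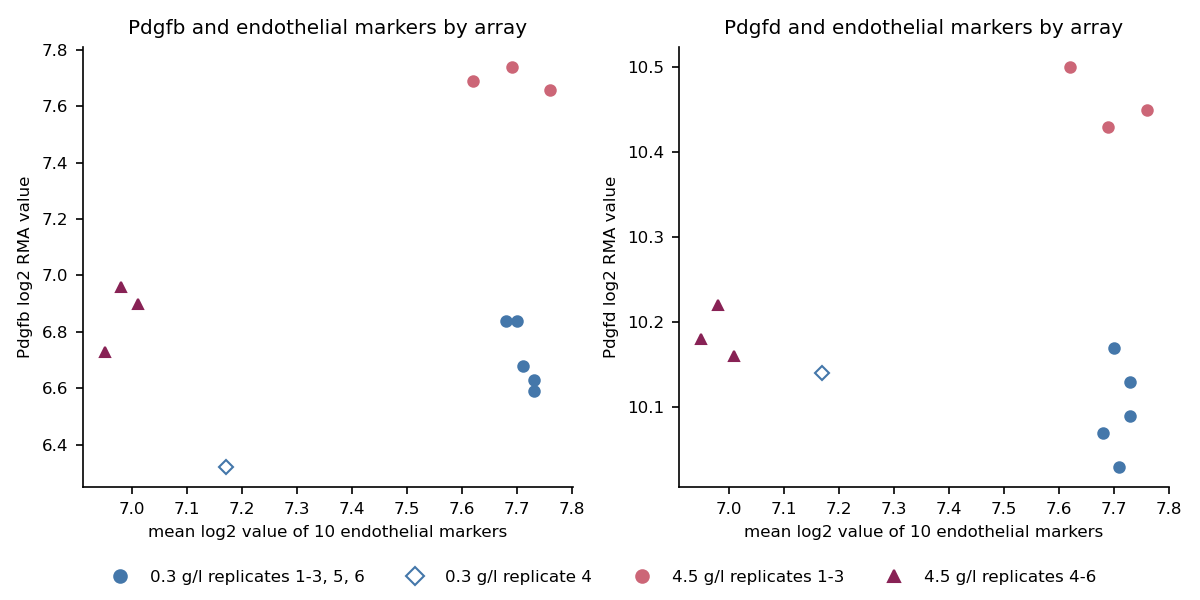
Log2 RMA value of Pdgfb (left) and Pdgfd (right) on each array against the mean log2 value of 10 endothelial markers on that array. The 4.5 g/l arrays form 2 sets, replicates 1 to 3 at 7.62 to 7.76 on the horizontal axis and replicates 4 to 6 at 6.95 to 7.01, and the higher set is also higher for both ligands. The 0.3 g/l arrays other than replicate 4, at 7.68 to 7.73, are low for both ligands, at 6.59 to 6.84 for Pdgfb and 10.03 to 10.17 for Pdgfd.

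Pdgfc encodes a ligand that is secreted with an inhibitory CUB domain and becomes active once that domain is cut off. It ran from 9.62 through 9.65 to 9.73 at 0.3 g/l and from 9.77 through 9.85 to 9.89 at 4.5 g/l. The groups did not overlap, as for 3 of the 10 genes (Pdgfc, Fgf2 and Igf1r) and 6.40% of all genes. The rise was small, 0.18 ± 0.05 (log2 difference ± SE, 1.14-fold, limma adjusted p = 0.0229). It was 0.17 within replicates 1 to 3 and 0.20 within replicates 4 to 6, neither of which passed with those 6 arrays alone (limma adjusted p = 0.172 and 0.322). With 1 array left out, Pdgfc missed the threshold without low-glucose array 1, 5 or 6 and without high-glucose array 4 or 5, with log2 differences of 0.17 to 0.18 and limma adjusted p of 0.0521 to 0.0553. After median centring of the arrays its log2 difference was 0.14 (limma adjusted p = 0.0757).

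Pdgfd encodes the other ligand with a CUB domain. It lay at 10.03, 10.11 and 10.17 (lowest, median and highest) at 0.3 g/l and at 10.16, 10.33 and 10.50 at 4.5 g/l, so that 5 of 6 arrays of 4.5 g/l exceeded all of 0.3 g/l. Its log2 difference was 0.22 ± 0.07 (SE), with a 95% confidence interval of 0.07 to 0.38, and it did not pass (limma adjusted p = 0.0533). Like Pdgfb, it was higher in high-glucose arrays 1 to 3 (10.43 to 10.50) than in replicates 4 to 6 (10.16 to 10.22). Within replicates 1 to 3 its log2 difference was 0.37 ± 0.07 (SE, limma adjusted p = 0.0165) and within replicates 4 to 6 it was 0.07 ± 0.09 (limma adjusted p = 0.732). Pdgfd passed without low-glucose array 4 (0.23, limma adjusted p = 0.0406) and without high-glucose array 4 or 5 (0.25 each, limma adjusted p = 0.0380 and 0.0444). It also passed with the number range (replicates 1 to 3 or 4 to 6) as a block (limma adjusted p = 0.0325), with robust moderation, the filter on dim genes, quantile or loess scaling or array weights (limma adjusted p of 0.0238 to 0.0352) and in the exact rank-sum test (adjusted p = 0.0482), but not after median centring (limma adjusted p = 0.143).

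Pdgfa, which encodes the A chain, showed the smallest difference of the 10 genes. It lay at 7.49, 7.55 and 7.79 at 0.3 g/l and at 7.61, 7.67 and 7.78 at 4.5 g/l (lowest, median and highest log2 values). The 4.5 g/l arrays lay inside the range of the 0.3 g/l arrays. The log2 difference was 0.10 ± 0.06 (SE, 95% confidence interval -0.04 to 0.23, limma adjusted p = 0.365). It was 0.14, with an interval of 0.02 to 0.25, without low-glucose array 4 (limma adjusted p = 0.0787).

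Of the PDGF receptors, Pdgfrb fell and Pdgfra did not pass. Pdgfrb, the receptor for PDGF-B and PDGF-D, ran from 11.51 through 11.80 to 11.89 at 0.3 g/l and from 11.22 through 11.37 to 11.53 at 4.5 g/l. It fell by 0.41 ± 0.08 on the log2 scale (SE, n = 6 per group), or 1.33-fold lower in 4.5 g/l (limma adjusted p = 0.00337). The lowest 0.3 g/l array was replicate 4, and 5 of 6 arrays of 4.5 g/l lay below it. Pdgfrb passed in each of the 12 fits that left out 1 array, with log2 differences between -0.46 and -0.38. Its log2 difference was -0.40 within replicates 1 to 3 (limma adjusted p = 0.0213) and -0.42 within replicates 4 to 6 (limma adjusted p = 0.175), where 30 genes (0.135%) and none of the 10 passed in limma, and 4 of the 10 and 16.7% of all genes had an unadjusted p under 0.05. Without low-glucose array 4 in that last set it was -0.52 (limma adjusted p = 0.0183).

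Pdgfra, the receptor that PDGF-A needs and a common marker of fibroblasts, lay at 6.90, 7.05 and 7.49 at 0.3 g/l and at 7.12, 7.40 and 7.74 at 4.5 g/l. The highest 0.3 g/l value was again that of replicate 4, and 2 of 6 arrays of 4.5 g/l exceeded it. The log2 difference of 0.36 ± 0.12 (SE, 95% confidence interval 0.11 to 0.61) missed the threshold (limma adjusted p = 0.0504). It passed without low-glucose array 4 (0.44, limma adjusted p = 0.00510) and without high-glucose array 1 (0.42, limma adjusted p = 0.0238). It also passed with the number range as a block (limma adjusted p = 0.0291) and with robust moderation, the filter on dim genes, quantile or loess scaling or array weights (limma adjusted p of 0.00660 to 0.0486). It did not pass after median centring (limma adjusted p = 0.0609), with the replicate number as a block (limma adjusted p = 0.0816) or in the exact rank-sum test (adjusted p = 0.133). Of 8 fibroblast markers in the list, none passed in either direction with all arrays, and their mean log2 value was 5.77 to 5.98 at 0.3 g/l and 5.62 to 6.04 at 4.5 g/l. The log2 value of their sum was 11.77 to 12.24 in 5 arrays of 0.3 g/l, 12.75 in low-glucose array 4 and 12.30 to 12.67 at 4.5 g/l. That sum was nearly all Col1a1, a collagen gene that smooth muscle cells also express, at 11.66 to 12.70 and 12.22 to 12.61, while the other 7 markers had 0.3 g/l means of 3.56 to 6.32. Col1a1 was named after its values were seen. The part of fibroblasts in the Pdgfra values was not tested. Of 6 pericyte markers, 3 rose (Rgs5, Kcnj8 and Cspg4), with list means of 7.62 to 7.73 in 5 arrays of 0.3 g/l, 8.05 in replicate 4 and 7.93 to 8.10 at 4.5 g/l. A single marker of the list passed without low-glucose array 1, 3, 5 or 6 or high-glucose array 4 or 5, since Rgs5 missed the threshold in 8 and Cspg4 in 6 of the 12 fits with 1 array left out.

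The change of one gene relative to another was compared within each array for 3 pairs, with exact permutation over the 924 assignments of 6 and 6 arrays (two-sided, smallest possible p = 0.00216) and adjustment over the 3 pairs. Such a difference shows unequal change and says nothing of which gene has the higher level. Pdgfra minus Pdgfrb shifted by 0.77 (log2), from -4.68 ± 0.34 to -3.92 ± 0.25 (SD, n = 6; exact permutation p = 0.00866, adjusted 0.0260). It ran from -5.00 to -4.70 in 5 arrays of 0.3 g/l and from -4.20 to -3.57 at 4.5 g/l, with low-glucose array 4 among the latter at -4.02. Pdgfa minus Pdgfb shifted by -0.53, from 0.94 ± 0.29 to 0.41 ± 0.47 (SD, n = 6; exact permutation p = 0.0519, adjusted 0.0779), and did not pass. It did pass with 1 array less, with adjusted p of 0.0390 without high-glucose array 4 and 0.0292 without high-glucose array 5, with a shift of -0.63 in each. Pdgfc minus Pdgfd shifted by -0.04 (exact permutation p = 0.632, adjusted 0.632). At 4.5 g/l this last pair had values of -0.68 to -0.58 in arrays 1 to 3 against -0.41 to -0.27 in arrays 4 to 6, whereas the 0.3 g/l arrays ran from -0.51 to -0.35.

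**Figure D3:**
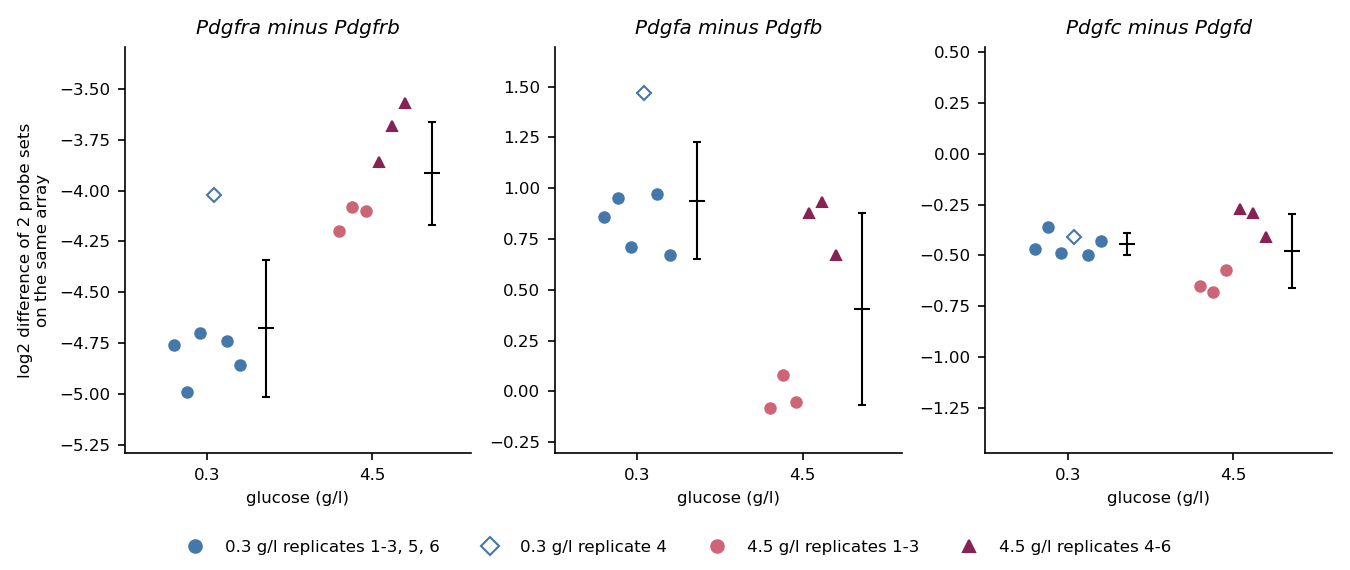
Log2 difference between 2 probe sets of the same array (vertical axis, the same span in each panel) by glucose concentration, with the mean and SD of 6 arrays. Pdgfra minus Pdgfrb is higher in every 4.5 g/l array than in 5 of the 0.3 g/l arrays, and the open diamond, low-glucose array 4 at -4.02, lies among the 4.5 g/l values.

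Fgf2, a mitogen of smooth muscle that lacks a classical secretion signal, had the smallest p of the 10 genes. It ran from 8.05 through 8.24 to 8.57 at 0.3 g/l and from 8.71 through 8.80 to 8.90 at 4.5 g/l, with no overlap between the groups. It rose by 0.56 ± 0.08 (log2 difference ± SE, 1.47-fold, limma adjusted p = 0.000677). The highest 0.3 g/l array was replicate 4. Fgf2 passed in all 12 fits that left out 1 array, with log2 differences between 0.51 and 0.62. Within replicates 1 to 3 the log2 difference was 0.66 (limma adjusted p = 0.00198) and within replicates 4 to 6 it was 0.45 (limma adjusted p = 0.190). The 3 genes whose values followed Fgf2 most closely over the 12 arrays were Nuf2, a kinetochore component (Pearson r = 0.983), Sgk1, a serum- and glucocorticoid-induced kinase (0.977), and Net1 (0.976). These 12 points share the split between groups, and Nuf2, Sgk1 and Net1 rose by log2 0.60, 0.90 and 0.55. As deviations from the group means, their r with Fgf2 was 0.911, 0.857 and 0.898, a description in which low-glucose array 4 takes part.

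Fgfr1, a receptor of FGF2, lay at 8.86, 9.01 and 9.27 at 0.3 g/l and at 9.15, 9.23 and 9.26 at 4.5 g/l. The 4.5 g/l arrays were tightly grouped, and low-glucose array 4 lay above all of them. The log2 difference was 0.21 ± 0.07 (SE, 95% confidence interval 0.06 to 0.36, limma adjusted p = 0.0620), which did not pass. Without low-glucose array 4 it was 0.26 and passed (limma adjusted p = 0.00324), as it did with robust moderation, the filter on dim genes or array weights (limma adjusted p of 0.00524 to 0.0403). Fgfr1 did not pass with quantile or loess scaling or median centring (limma adjusted p of 0.0549 to 0.0908). Nor did it pass with the replicate number (limma adjusted p = 0.120) or number range (0.0662) as a block, or in the exact rank-sum test (adjusted p = 0.213).

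Igf1 had the largest log2 difference of the 10 genes and the largest spread at 0.3 g/l. It lay at 6.80, 7.16 and 8.74 at 0.3 g/l and at 8.12, 8.19 and 8.24 at 4.5 g/l (lowest, median and highest). The highest of all 12 arrays was low-glucose array 4, and the other 5 arrays of 0.3 g/l lay below every array of 4.5 g/l. Igf1 rose by 0.81 ± 0.24 (log2 difference ± SE, 1.75-fold, limma adjusted p = 0.0391). Without low-glucose array 4 the difference was 1.08 ± 0.08 (limma adjusted p = 1.17e-06). Leaving out any of the other 11 arrays, with replicate 4 kept, ended the call, with log2 differences of 0.69 to 0.82 and limma adjusted p up to 0.0908. Igf1 also missed the threshold with robust moderation (limma adjusted p = 0.0526) and in the exact rank-sum test (adjusted p = 0.213). Macrophages also make IGF1. Of 8 macrophage and leukocyte markers none passed, 3 had a mean under 4.20, and the log2 value of their sum was 8.08 to 8.70 at 0.3 g/l and 8.19 to 8.69 at 4.5 g/l. The sum was lowest in low-glucose array 4, as was its brightest marker, Cd68, at 6.24, which was named after its values were seen. The part of these cells in the Igf1 values was not tested.

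Igf1r, the receptor of IGF1, ran from 9.83 through 9.91 to 10.34 at 0.3 g/l and from 10.35 through 10.51 to 10.63 at 4.5 g/l. The groups did not overlap, though low-glucose array 4 was the highest of its group at 10.34, just below the lowest 4.5 g/l array at 10.35. Igf1r rose by 0.53 ± 0.09 (log2 difference ± SE, 1.44-fold, limma adjusted p = 0.00173) and passed in all 12 fits with 1 array left out (0.50 to 0.60). Unlike Pdgfb and Pdgfd, it was higher in high-glucose arrays 4 to 6 (10.59 to 10.63) than in replicates 1 to 3 (10.35 to 10.43). Values of these 2 sets of 4.5 g/l arrays did not overlap for 5 of the 10 genes (Pdgfb, Pdgfd, Fgf2, Fgfr1 and Igf1r), against 27.8% of all genes. Without low-glucose array 4 the glucose groups did not overlap for 7 of the 10, against 18.9% of all genes.

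**Figure D4:**
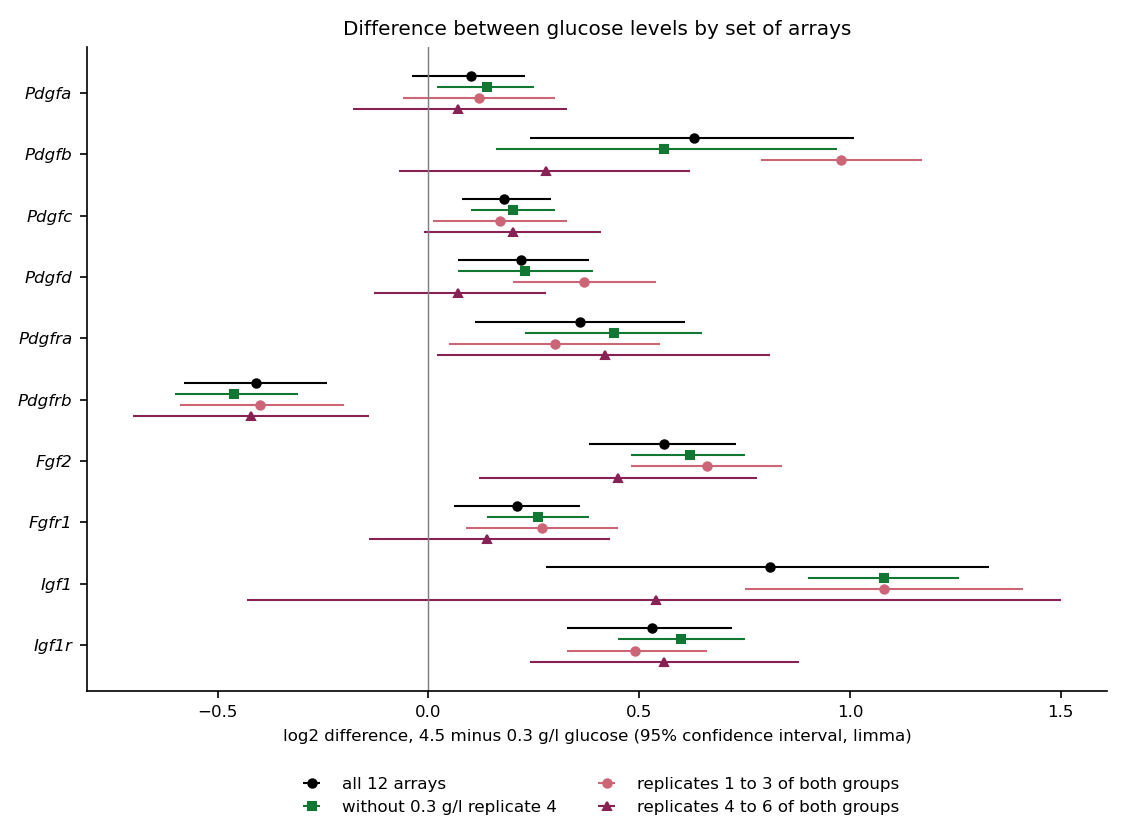
Log2 difference between 4.5 and 0.3 g/l (horizontal axis) with its 95% confidence interval from limma, for each gene with 4 sets of arrays. Pdgfrb lies below 0 in every set and the other genes above it, and the widest interval is that of Igf1 in replicates 4 to 6, a set that holds low-glucose array 4.

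Other genes of these pathways were read from 6 lists with 143 measured genes, of which 29 rose and 14 fell, together 30.1% against 15.5% of all genes. At most 2 genes of a list lay among the dimmest 25% of genes. In a separate fit without that 25%, the share over all genes was 23.8%, whereas the 30.1% of the lists is from the main fit. The lists were chosen with earlier results of these data known. Among 12 genes that process or bind PDGF, 4 rose, none fell and 8 did not pass (median log2 difference 0.17, and -0.01 over all genes). The largest rise was that of Plau, the urokinase plasminogen activator, a protease known to activate PDGF-D. Plau rose from 8.06 ± 0.42 to 9.42 ± 0.19 (SD, n = 6), or 2.57-fold (limma adjusted p = 0.000200), and its groups did not overlap, at 7.79 to 8.90 and 9.15 to 9.63. Plat, the tissue plasminogen activator and the known activator of PDGF-C, was named after its values were seen. It rose from 7.30 ± 0.15 to 7.97 ± 0.33 (1.59-fold, limma adjusted p = 0.00420). The log2 difference of Plat was 1.05 within replicates 1 to 3 and 0.30 within replicates 4 to 6. Furin, which cleaves the PDGF-A and PDGF-B precursors and was also picked after the fact, had a log2 difference of 0.24 ± 0.10 (limma adjusted p = 0.116). Of the 12, 7 rose without low-glucose array 4, and 3 rose when any other array was left out.

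Among 26 other FGF ligands, receptors and heparan sulfate co-receptors, 4 rose, 1 fell and 21 did not pass (median log2 difference -0.05). Sdc4, the heparan sulfate proteoglycan syndecan-4, rose 1.53-fold, from 9.56 ± 0.30 to 10.17 ± 0.10 (limma adjusted p = 0.00331). Fgf21, a hormone-like FGF induced by stress, was 1.32-fold lower, from 5.20 ± 0.18 to 4.80 ± 0.15 (limma adjusted p = 0.0102). Leaving out low-glucose array 4, 7 of the 26 rose and 2 fell. With any other array left out 3 to 4 rose, and 2 fell without high-glucose array 2 or 3.

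Of 20 measured genes around the insulin-like growth factors, 2 rose, 3 fell and 15 did not pass (median log2 difference -0.05). Omission of low-glucose array 4 gave 4 that rose and 4 that fell. None rose without low-glucose array 1, and 1 rose in each of the other fits with 1 array left out except that without high-glucose array 4, where 2 rose. Igfbp2, a secreted protein that binds IGFs, rose 1.51-fold, from 12.15 ± 0.36 to 12.74 ± 0.24 (limma adjusted p = 0.0202). Its adjusted p was 0.0513 without low-glucose array 1. Stc2, stanniocalcin-2, which inhibits the protease PAPP-A, was 1.62-fold lower (limma adjusted p = 0.00225). The gene of that protease, Pappa, which releases IGFs from binding proteins and was named after its values were seen, was 1.34-fold lower (limma adjusted p = 0.0122). Among 26 other growth factor receptors and ligands, 5 rose and 5 fell (median log2 difference -0.08). The EGF receptor ligand Ereg, epiregulin, rose 1.95-fold, from 8.57 ± 0.16 to 9.53 ± 0.21 (limma adjusted p = 8.01e-05), and neuregulin, Nrg1, was 1.88-fold lower, from 9.62 ± 0.13 to 8.71 ± 0.25 (limma adjusted p = 0.000174).

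Of 31 measured genes of the shared signalling core below the receptors, 4 rose, 3 fell and 24 did not pass (median log2 difference 0.02). Omission of low-glucose array 4 gave 6 that rose and 5 that fell, and 1 fell without low-glucose array 5 or 6 or high-glucose array 4 or 5. The largest rise was that of Pik3cb, a catalytic subunit of phosphoinositide 3-kinase, by 0.34 ± 0.09 (log2 difference ± SE, limma adjusted p = 0.0164). The largest fall was that of Map2k2, the kinase that activates ERK, with a log2 difference of -0.29 (limma adjusted p = 0.00480). Of 28 feedback regulators of receptor signalling, 10 rose, 2 fell and 16 did not pass (median log2 difference 0.08). With 1 array left out 6 to 10 rose, 6 being the count without low-glucose array 5 or 6 or high-glucose array 5, and 2 to 3 fell. Dusp5, a nuclear phosphatase of ERK, rose 1.49-fold, from 7.28 ± 0.37 to 7.85 ± 0.14 (limma adjusted p = 0.0166), with low-glucose array 4 at the top of both groups at 8.04. Dusp4, a related phosphatase, was 2.22-fold lower, from 7.83 ± 0.44 to 6.67 ± 0.24 (limma adjusted p = 0.000974). The feedback list thus held ERK phosphatases that changed in both directions.

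**Figure D5:**
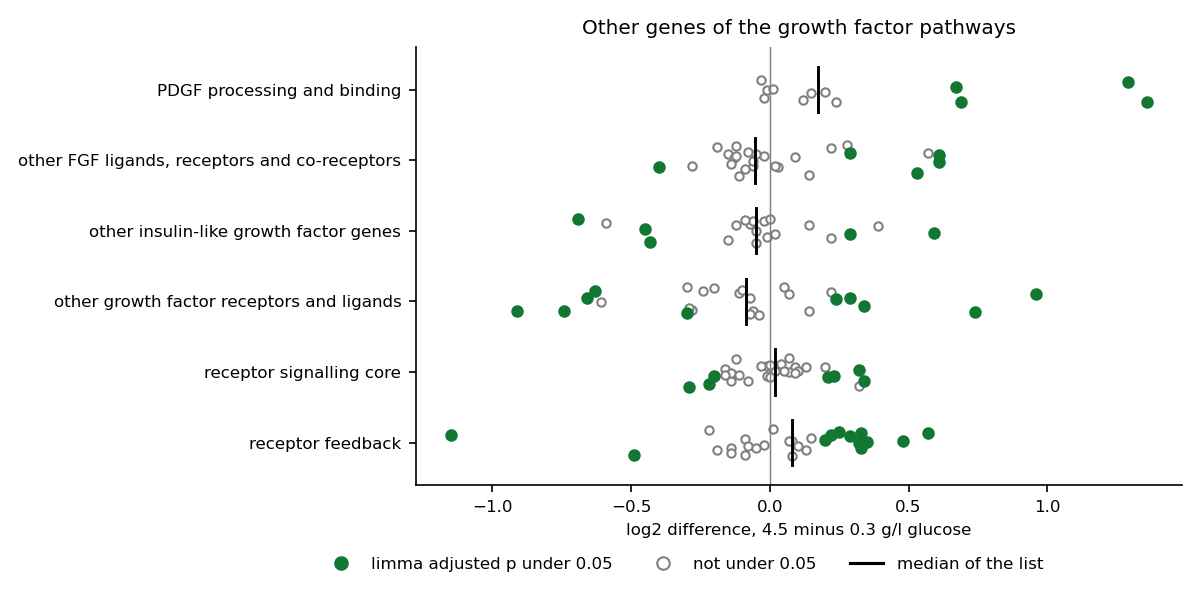
Log2 difference between 4.5 and 0.3 g/l (horizontal axis) of each measured gene in 6 lists, filled where the limma adjusted p was under 0.05, with the median of each list as a bar. The medians lie between -0.08 and 0.17, with called genes on both sides of 0 in every list but that of PDGF processing and binding, where 4 rose and none fell.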

How the data were processed

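RNA of 12 samples, 6 per glucose level, was labelled with biotin and hybridised to an Affymetrix whole-transcript array, per the labels' protocols. The authors deposited 1 table of log2 values for 41345 probe sets, made with Affymetrix Expression Console and RMA, per the submitters' processing notes. RMA corrects background, equalises probe distributions between arrays and summarises probes. It therefore hides any shift in the amount of RNA in a cell, and it compresses differences of dim genes. Versions, scan dates and the build used for the array are not given in the sources used here. Values of 0.601 to 13.90 bear out the log2 scale of RMA. The platform annotation gave 1 symbol for 23521 probe sets, several for 1814 (not named) and none here for 16010. Each of the 22180 genes was represented by its probe set with the highest mean.

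The glucose groups were tested by limma 3.58.1 under R 4.3.3, with moderated linear models over all 12 arrays, two-sided and with no block, and p-values were adjusted over all genes by Benjamini-Hochberg at a threshold of 0.05. The fit was tested on simulated data of 22180 genes for this comparison. With 50 genes changed by each of 4 log2 sizes, it recovered 66% of those changed by 0.5, 98% by 1, 100% by 2 and 100% by 3, and 14 of its 196 calls were of unchanged genes. The simulated noise was independent between genes and arrays, with no array or set of arrays shifted across genes. Far fewer genes changed there than were called in the real data. These rates therefore need not hold for the real arrays. Pairs of genes were compared by exact permutation.

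The members and lists were chosen with earlier results of these data known. The text names all 10 members, of each pathway or marker list the called gene with the largest rise and that with the largest fall, any called gene of a list with 3 or fewer, and the 3 genes most correlated with the member of smallest p. Exceptions are marked. Alternatives were mean-variance trend with robust moderation, a filter on the dimmest 25% of genes (mean below 4.20), 3 scalings, mean of probe sets, array weights, replicate number or number range as a block, number ranges alone, an exact rank-sum test and leaving out each array. The set of replicates 4 to 6 without low-glucose array 4 was chosen after seeing the data. Arrays give no read depth, and their number limits the precision. Over all genes, SEs of log2 differences had a median of 0.0931. Figures were drawn with matplotlib 3.10.9.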

Additional observations from a re-analysis of the deposited data

Results flagged for a closer look

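In 4 of the 20 sets of 6 values examined (10 genes in 2 groups), 1 array lay far from the rest of its group, with a gap to its nearest neighbour of more than 0.625 of the group's range. Chance gives about 1 in 20 such sets. All 4 were low-glucose array 4. It was the highest of its group for Pdgfra at 7.49 (gap of 0.715 of the range), Igf1 at 8.74 (0.717) and Igf1r at 10.34 (0.729), and the lowest for Pdgfrb at 11.51 (0.670). The 4 sets share this array and are not independent of each other. This array stood apart across all genes, and the share of all genes with such a gap was not computed. The count is therefore not read as a trait of these genes.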

How the results depend on the processing

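Each member's difference was recomputed under 25 alternatives. Of these 250 values, 190 kept their direction and their side of the threshold, 36 kept the direction and lost the call, 24 kept the direction and gained a call, and 0 reversed. With robust moderation, the filter on dim genes, either block, the mean of probe sets or the rank-sum test, the difference was that of the main fit. Under those alternatives only the call could change, and their kept directions carry no information. Of the 10 members, 6 passed with all arrays and 3 to 9 with 1 array left out, with 3 without low-glucose array 1 or 5 (where 11.3% and 11.4% of all genes passed) and 9 without low-glucose array 4 (23.9%). Fgf2, Igf1r and Pdgfrb passed in all fits with 1 array left out. Within replicates 4 to 6 alone 0 members and 30 genes passed by limma, and 4 members and 3699 genes had an unadjusted p under 0.05. Over all genes 3444 passed, 5419 with array weights, 1993 in the exact rank-sum test, and 2514 to 5295 with 1 array left out. Median centring gave 1272 higher and 2197 lower genes against 1555 and 1889, and the median difference of all genes was -0.05 against -0.01. The labels do not say whether equal replicate numbers pair the samples. Deviations of same-numbered arrays from their group means correlated at -0.05 to 0.17, which shows no strong pairing and cannot exclude a weak one. With the replicate number as a block, 3130 genes (14.1%) and 5 members passed, Pdgfc being lost. The shift of Pdgfra minus Pdgfrb was 0.77 with the replicate block (exact sign-flip permutation, adjusted p = 0.0938, where the smallest unadjusted p is 0.0312), 0.69 within replicates 1 to 3 and 0.84 within replicates 4 to 6, where 3 against 3 arrays cannot reach the threshold, and 0.70 to 0.90 with 1 array left out. The shift of Pdgfa minus Pdgfb was -0.63 to -0.43 with 1 array left out and passed without high-glucose array 4 (-0.63) or 5 (-0.63). That of Pdgfc minus Pdgfd turned to 0.13 within replicates 4 to 6 and to 0.00 without high-glucose array 2, and lay between -0.08 and 0.00 with 1 array left out. The causes of these changes were not tested.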
